A study of Solanum lycopersicum with 8 samples.

Results

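Young leaves of the tomato mutant pro∆GRAS were compared with young leaves of the cultivar M82, both 3 h after gibberellin. Of the 8 RNA-seq libraries of the series, the 4 from GA3-treated seedlings make this comparison, 2 of pro∆GRAS and 2 of M82, taken by the genotype and treatment in the deposited column names. The question was what still separates the genotypes once M82 has itself received gibberellin. The pro∆GRAS seedlings with GA3 carried a mutant allele of PROCERA, the gene for the tomato DELLA protein, and had received paclobutrazol at 10 mg/l daily for 3 days, then 100 µM GA3. The M82 seedlings with GA3 had the same treatments and a functional PROCERA. Mutant and M82 seedlings given paclobutrazol alone, also 2 libraries each, are used below to show what each genotype did without GA3. No group was free of paclobutrazol. The allele is named for the GRAS domain of the protein, and the deposited table calls the line "null". Whether a library came from 1 plant or a pool is not given in the sources used here, and the p-values reflect how far these particular libraries scatter, which may be technical.

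Gibberellin (GA) is a growth hormone that acts by removing a repressor. Bound GA lets the receptor GID1 grip a DELLA protein, which is then tagged by an F-box ligase and degraded, and the transcription factors that DELLA held back become free. Paclobutrazol blocks an early oxidation in GA synthesis, so DELLA accumulates in a treated wild type. GA3 supplied from outside bypasses that block. A plant without working DELLA lacks the repressor with or without the hormone.

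The deposited identifiers are not paired with gene names, and RefSeq's list of 41476 tomato genes (assembly SLM_r2.1) matched 0 of them. Identifiers alone are printed, at most 2 higher and 2 lower for each comparison, and their functions, the PROCERA transcript itself and leaf markers were not analysed here. The chromosome is the number that the identifier carries.

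The 4 GA3 libraries held 18153672 and 17063766 counts in the mutant and 17757386 and 17585593 in M82. Of these 4, M82 library 2 with GA3 stood apart: its 100 most abundant genes took 50.3% of its counts, against 31.4% to 41.3% in the other 3. Without GA3, M82 library 3 had the highest such share, 45.5%. Between the 2 libraries of a group, log2 differences of the 16182 genes that averaged 1 CPM or more had an SD of 0.533 in the mutant and 0.493 in M82 with GA3. Without GA3 this SD was 0.476 in the mutant and 0.693 in M82, the most scattered group. CPM is the usual measure of a gene's count relative to its library's total, here with the total corrected for composition by TMM factors. It is not divided by gene length, so levels are compared between libraries and not between genes. In whole leaves, a change in the share of a cell type and a change in RNA per cell cannot be told apart.

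With GA3 in both genotypes, 65 genes differed, 35 higher and 30 lower in the mutant, the threshold being a Benjamini-Hochberg adjusted p of 0.05 in edgeR's quasi-likelihood test. They are 0.354% of the 18340 genes tested, 0.191% higher and 0.164% lower. Of the 35 higher and 30 lower genes, 29 and 22 passed 4-fold, and 9 and 3 passed 16-fold. Over all 18340 genes tested, 449 passed 4-fold and 42 passed 16-fold. The sizes come from the libraries that chose the genes, and with 2 libraries a group the threshold favours large differences. The median log2 fold change was 2.88 for the higher and -2.23 for the lower genes, and the smallest called one was 1.31. The called genes had medium levels, with a median of 9.76 CPM over the 4 libraries (range 1.05 to 125 CPM), against 8.29 CPM over all genes tested. Adjusted p-values lay between 0.00324 and 0.0493.

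The count rested on every library. It was 8 (8 higher, 0 lower) and 36 without mutant libraries 1 and 3 with GA3, and 10 and 0 without M82 libraries 1 and 2 with GA3. At the 0, 1396 genes still had an unadjusted p under 0.05. Leaving out a library without GA3 also moved it, because all 4 groups share an estimate of the spread: to 14 without either mutant library and to 236 and 216 without M82 libraries 1 and 3. DESeq2, applied to all libraries, called 552 genes (3.01%), 280 higher (1.53%) and 272 lower (1.48%), the 65 among them. At an unadjusted edgeR p under 0.01, 861 genes (4.69%) differed, 408 higher and 453 lower in the mutant. Their medians were 1.56 and -1.25 with GA3, and 1.08 and -0.51 without it. All 65 kept their direction in each of the 14 alternative analyses that tested them all. So did the 60 that a filter of 5 CPM in 2 libraries left to be tested. In none of the 65 did the GA3 libraries of the 2 genotypes overlap, so leaving out a library could not turn a direction. The other alternatives reuse the same counts, and the kept directions are no separate support. Scaled by library totals alone, edgeR called 56 genes higher and 11 lower, and the median of all genes then shifted to 0.317.

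The higher gene with the smallest p among those with at least 1 CPM in all 4 libraries was Solyc10g083300.1, on chromosome 10. It had 22.9 and 26.5 CPM in the mutant with GA3, against 1.88 and 2.25 CPM in M82 with GA3. Without GA3 it had 28 and 29.6 CPM in the mutant and 1.04 and 1.53 CPM in M82. The 4 mutant libraries were thus far above the 4 M82 libraries in either treatment. The log2 fold change was 3.58 (SE 0.272, edgeR adjusted p = 0.00324) with GA3 and 4.49 (SE 0.291, edgeR adjusted p = 0.00077) without. It was called in 14 of 15 alternatives, the exception being the fit without M82 library 2 with GA3 (edgeR adjusted p = 0.0536).

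Solyc01g094910.2, on chromosome 1, had 14.8 and 13.6 CPM in the mutant with GA3, against 1.38 and 2.04 CPM in M82 with GA3. Without GA3 the levels were 8.70 and 7.84 CPM in the mutant and 0.784 and 1.53 CPM in M82. Both mutant libraries with GA3 lay above both without it, as in 14.3% of all genes tested, and neither edgeR nor DESeq2 called this GA3 effect. The mutant was above M82 throughout. Its log2 fold change was 3.06 (SE 0.354, edgeR adjusted p = 0.0191) with GA3 and 2.85 (SE 0.372, edgeR adjusted p = 0.0244) without. The call with GA3 was lost without M82 library 1 or 2 or mutant library 1 with GA3 (edgeR adjusted p = 0.154, 0.0966 and 0.0761).

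Among lower genes, Solyc03g111120.2, on chromosome 3, had 18.7 and 13.3 CPM in the mutant with GA3, against 73.7 and 107 CPM in M82 with GA3. Without GA3 it had 18.8 and 21.3 CPM in the mutant and 26.8 and 28.6 CPM in M82. Both M82 libraries with GA3 stood far above the other 6 libraries, which lay between 13.3 and 28.6 CPM. The genotype difference was -2.49 (log2, SE 0.274, edgeR adjusted p = 0.0191) with GA3 and -0.46 (SE 0.262, edgeR adjusted p = 0.63) without. The difference between these 2 values, tested as an interaction, was -2.03 (SE 0.373), with an edgeR adjusted p of 0.656 and a DESeq2 adjusted p of 0.0101. The call with GA3 was lost without M82 library 2 or mutant library 1 or 3 with GA3 (edgeR adjusted p = 0.0956, 0.0541 and 0.0506).

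Solyc07g041910.2, on chromosome 7, had 1.04 and 1.54 CPM in the mutant with GA3, against 20.8 and 43.9 CPM in M82 with GA3. Without GA3 it had 0.88 and 1.06 CPM in the mutant and 6.66 and 14.9 CPM in M82. The mutant was near 1 CPM in all its libraries. M82 was higher with GA3 than without it, with no overlap, as in 19.3% of all genes tested. This GA3 effect in M82 was not called (edgeR adjusted p = 0.41, DESeq2 adjusted p = 0.103). The log2 fold change was -4.64 (SE 0.517, edgeR adjusted p = 0.0191) with GA3 and -3.46 (SE 0.52, edgeR adjusted p = 0.0323) without. The call with GA3 was lost without M82 library 2 or mutant library 1 with GA3 (edgeR adjusted p = 0.0911 and 0.0942).

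**Figure D1:**
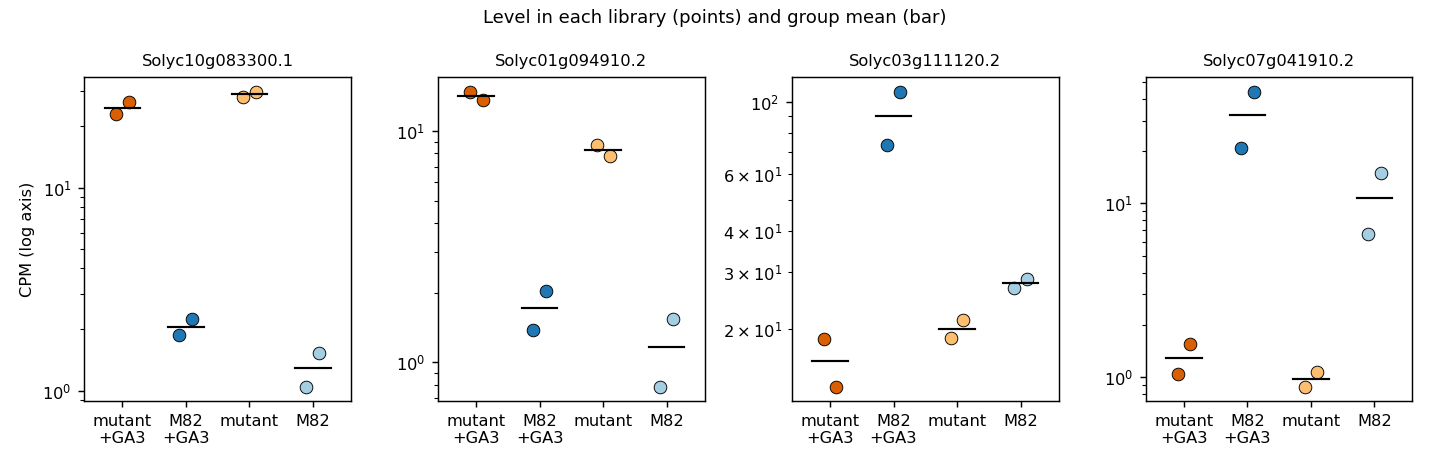
CPM (log axis) of the 2 higher and 2 lower genes in every library: mutant with GA3, M82 with GA3, mutant without GA3 and M82 without GA3. Points are libraries and bars are group means of 2 libraries. For Solyc03g111120.2, M82 with GA3, at 73.7 and 107 CPM, stands above the other groups. Without GA3 its genotypes are close, though they do not overlap. In the other panels the genotypes are far apart with and without GA3.

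In 5 of the 65 genes, a whole GA3 group had no count. In 4 of the higher genes M82 with GA3 had none, and against a floor of 3 counts over that group the mutant was at least 137-, 49.1-, 23.2- and 22.7-fold higher. The genes with the bounds of 137 and 49.1 had no count in M82 without GA3 either. The other 2 had at most 0.484 CPM there. In 1 lower gene the mutant with GA3 had no count and was at least 75.9-fold lower than M82. In the mutant without GA3 this gene had 0.155 and 0.336 CPM. These bounds cover counting error only. Among the genes with counts in both groups, log2 fold changes reached 7.64 and -4.64. The gene at 7.64 had only 0.111 and 0.0702 CPM in M82 with GA3, a few reads, against 33.6 and 6.06 CPM in the mutant. The size of that difference is therefore uncertain.

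**Figure D2:**
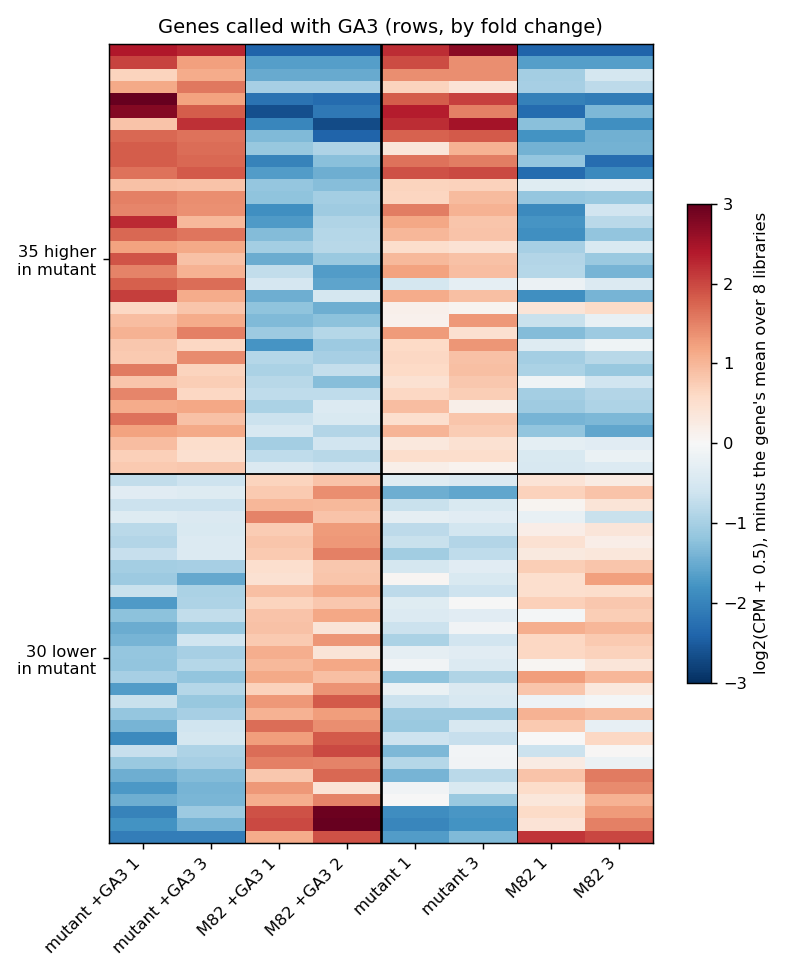
The 65 genes called with GA3 (rows, ordered by fitted fold change) in the 8 libraries (columns), as log2(CPM + 0.5) minus each gene's mean over the libraries. The GA3 libraries left of the thick line chose the genes. In the 4 columns right of it, which did not, the upper block of 35 genes mostly keeps its colours and the lower block of 30 genes is paler.

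The mutant and M82 libraries without GA3 share no library with those that chose the 65 genes, although the fit shares its estimate of the spread. Of the 35 genes higher with GA3, 33 also had higher fitted levels in the mutant without GA3, and in all 33 the mutant libraries lay above the M82 libraries (19.3% of all genes tested did). Of the 30 lower genes, 29 had lower fitted levels without GA3, and in 27 the libraries did not overlap (17.6% of all genes). Over all genes the sign was the same in 66.4%. Sizes without GA3 were smaller, with a median of 2.28 for the higher and -1.17 for the lower genes.

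Called in both treatments were 17 higher and 7 lower genes, all in the same direction. That is 48.6% of the genes higher with GA3 and 31.5% of the 54 higher without it, and 23.3% of the genes lower with GA3 and 38.9% of the 18 lower without it. The backgrounds were 0.191% and 0.294% higher with and without GA3, and 0.164% and 0.0981% lower. The 17 higher genes had median log2 fold changes of 3.58 with GA3 and 3.76 without it. The 7 lower genes had medians of -3.05 and -2.57. The count of 24 was 0 to 39 when single libraries were left out, with 0 without M82 library 2 with GA3. The remaining 18 higher and 23 lower genes were called with GA3 alone, with medians without GA3 of 1.53 and -1.02. Of these 41 genes, 16 and 18 had an unadjusted edgeR p under 0.05 without GA3, as did 1871 of all 18340 genes tested.

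The 72 genes called without GA3 (0.393% of those tested) were chosen without the GA3 libraries, though the filter, scaling and spread estimate were shared. In M82, differences between library 1 and the remaining library correlated between the treatments (r = 0.544, 16182 genes). The GA3 values may therefore not be fully independent of that choice. Of the 54 genes higher in the mutant without GA3, 47 had higher fitted levels with GA3 too. In 44 the mutant libraries with GA3 lay above those of M82 (24.6% of all genes did), in 7 they overlapped and in 3 they lay below. The median log2 fold change of the 54 was 1.49 with GA3 (quartiles 0.44 and 2.55) and 2.21 without. All 18 genes lower without GA3 were lower with it, with no overlap (25.2% of all genes), and their medians were -1.84 with GA3 and -2.50 without. Without M82 library 2 with GA3, the medians with GA3 were 1.46 and -2.21.

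Differences were smaller with GA3 in 44 of the 54 and 13 of the 18 genes. The opposite held for the genes chosen with GA3, of which 56 of 65 were larger with it. In both lists the treatment used for the choice thus showed the larger size. Of all 18340 genes tested, differences were smaller with GA3 in 7827 and larger in 10513. Taken over 18340 genes, whose values are not independent of each other, the genotype differences with and without GA3 correlated with Pearson r = 0.532 and Spearman rho = 0.449.

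**Figure D3:**
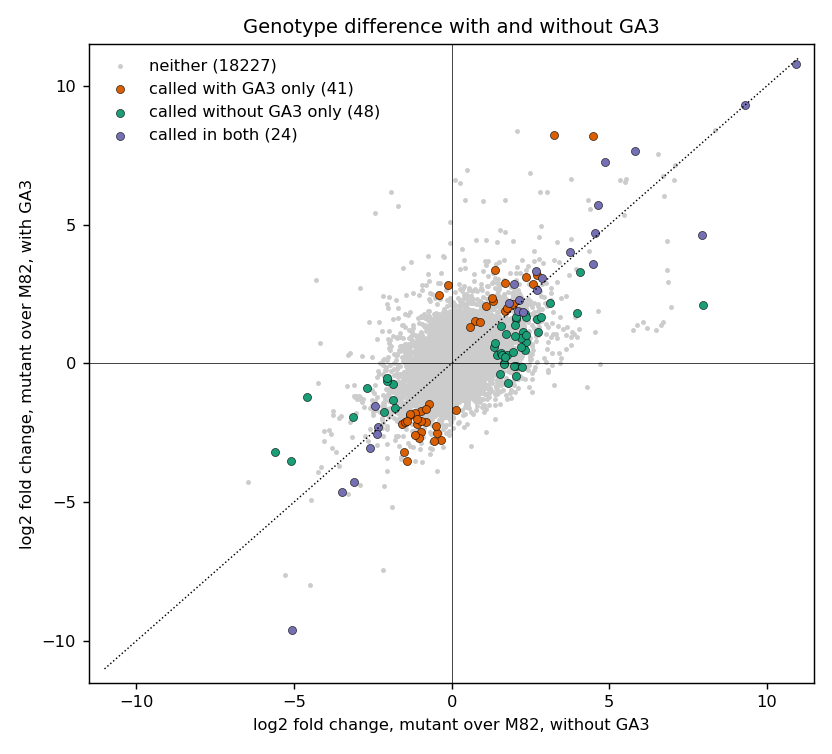
log2 fold change of the mutant over M82 with GA3 (vertical) against that without GA3 (horizontal) for 18340 genes; the dotted line marks equal values. The 24 genes called in both treatments lie mostly near the line, in both directions, and the 48 genes called without GA3 alone mostly lie between the line and 0. Genes with no count in a group have fitted values that depend on the prior count.

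The genes with the smallest p without GA3 show the different outcomes. Solyc10g083300.1, described above, was again the leading higher gene. The next, Solyc03g111690.2 on chromosome 3, had 62.9 and 66.2 CPM in the mutant with GA3, against 29.6 and 29.5 CPM in M82 with GA3. Without GA3 it had 46.7 and 50.3 CPM in the mutant and 11.4 and 8.88 CPM in M82. M82 with GA3 lay between M82 without it and the mutant. Its log2 fold change was 1.13 (SE 0.214, edgeR adjusted p = 0.067, DESeq2 adjusted p = 0.00219) with GA3 and 2.25 (SE 0.225, edgeR adjusted p = 0.0132) without. The difference between the treatments did not pass the test (-1.12, SE 0.304, edgeR adjusted p = 0.994, DESeq2 adjusted p = 0.671).

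Solyc07g006570.2, on chromosome 7, had 8.62 and 8.46 CPM in the mutant with GA3, against 19.6 and 29.9 CPM in M82 with GA3. Without GA3 it had 3.73 and 3.47 CPM in the mutant and 18.2 and 20.7 CPM in M82. Here it was the mutant whose 2 libraries were higher with GA3 than without, as in 14.3% of all genes tested. This GA3 effect in the mutant was not called (edgeR adjusted p = 0.843, DESeq2 adjusted p = 0.127). The log2 fold change was -1.53 (SE 0.259, edgeR adjusted p = 0.0493) with GA3 and -2.43 (SE 0.274, edgeR adjusted p = 0.0185) without. Its call with GA3 came up again in only 7 of 15 alternatives. Solyc03g045140.2, on chromosome 3, had 3.17 and 2.77 CPM in the mutant with GA3, against 15.6 and 13.2 CPM in M82 with GA3. Without GA3 the values were 2.69 and 3.47 CPM in the mutant and 17 and 14.3 CPM in M82. In both genotypes the libraries with and without GA3 overlapped. The log2 fold changes were -2.28 (SE 0.27, edgeR adjusted p = 0.0193) with GA3 and -2.34 (SE 0.271, edgeR adjusted p = 0.0185) without. Its call with GA3 came up again in 10 of 15 alternatives. Each call without GA3 of these 3 genes was lost without mutant library 1 (edgeR adjusted p = 0.154, 0.192 and 0.192) or 3 without GA3 (edgeR adjusted p = 0.0868, 0.13 and 0.118).

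The GA3 effects within each genotype use the libraries that chose the genes, so they are given side by side and nothing is read from their sizes. In the 30 genes lower with GA3, M82 libraries with GA3 lay above those without in 18, and mutant libraries with GA3 lay below those without in 15. The median GA3 effects were 0.58 in M82 and -0.30 in the mutant. In the 35 higher genes, M82 libraries with GA3 lay below those without in 12 and mutant libraries with GA3 above those without in 14. Their median GA3 effects were -0.06 in M82 and 0.36 in the mutant. Over all genes tested, 19.3% of M82 and 14.3% of mutant genes lay above with GA3, and 16.6% and 14.9% below. Of the 37 genes higher without GA3 that were not called with it, 33 had M82 libraries with GA3 above those without.

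Whether GA3 changed the genotype difference was tested directly as an interaction. No gene passed with edgeR. An unadjusted edgeR p under 0.05 was found in 689 genes (3.76%), fewer than that threshold would pass on average with no interaction anywhere. DESeq2 called 20 genes (0.109%), 6 with a more positive and 14 with a more negative difference with GA3. Of the genes that edgeR called in 1 treatment alone, DESeq2 called the interaction in 3 of the 41 called with GA3 and 6 of the 48 called without it. For the rest, a call in 1 treatment alone does not show that the treatments differ. In 594 genes (3.24% of those tested) the libraries of the genotypes were apart in opposite directions with and without GA3, among them 1 of the 65 called genes.

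Called genes lay on all 12 numbered chromosomes and on none of the 139 tested genes of chromosome 0, the number given to sequence not placed on a chromosome. The called share was lowest on chromosome 2, with 3 of 1927 genes (0.156%), and highest on chromosome 11, with 8 of 1232 (0.649%). Chromosome 1 had 5 higher and 0 lower genes, whereas chromosome 7 had 1 higher and 5 lower and chromosome 6 had 0 higher and 3 lower. With DESeq2, chromosome 1 had 27 higher and 30 lower, chromosome 7 had 20 and 19, and chromosome 6 had 27 and 33. The called share of a chromosome by DESeq2 ran from 2.23% on chromosome 5 to 3.92% on chromosome 8 among the numbered chromosomes, against 3.01% of all genes tested, and was 4.32% (4 higher and 2 lower of 139 genes) for chromosome 0. These counts are descriptions, and no test of position was made.

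**Figure D4:**
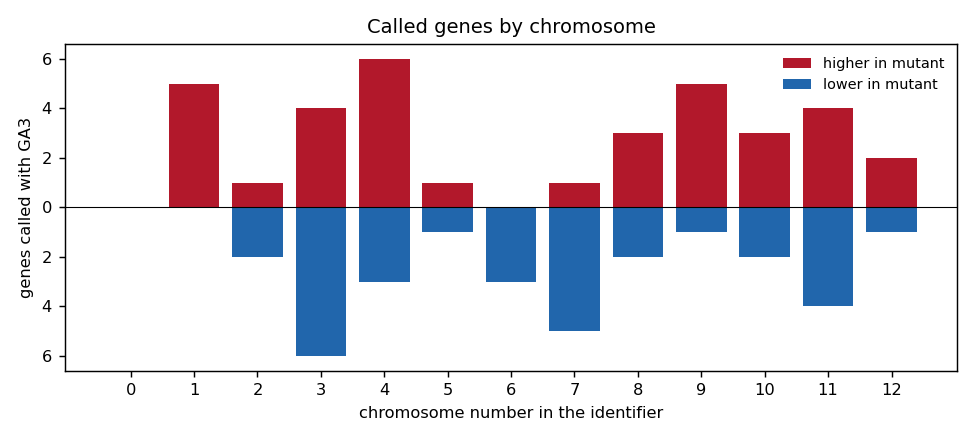
Number of genes called with GA3 (vertical) on each chromosome number of the identifiers (horizontal), with genes higher in the mutant above 0 and lower ones below. Chromosome 4 has the most higher genes, 6, and chromosome 3 the most lower ones, 6.

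Some called genes were neighbours in identifier order, with no other tested gene between them. Among the 65 genes there were 3 such pairs. On chromosome 7, Solyc07g041910.2 was followed by a gene with 1.33 and 2.92 CPM in the mutant with GA3, against 26.9 and 56.0 CPM in M82 with GA3. The log2 fold change was -4.29 (SE 0.49, adjusted p by edgeR 0.0191), and its values followed those of its neighbour, with M82 library 2 above library 1. On chromosome 4, a pair was higher: 1 gene had 91.7 and 46.7 CPM in the mutant with GA3 against 7.52 and 14.7 CPM in M82 with GA3. The gene beside it had 9.10 and 6.54 CPM in the mutant, against 1.55 and 0.561 CPM in M82. On chromosome 1, a gene with 5.92 and 3.19 CPM in the mutant and no count in M82 with GA3 stood beside one with 3.88 and 3.67 CPM in the mutant and 0.442 and 0.561 CPM in M82. In each pair both genes differed in the same direction.

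DESeq2's longer list held 25 runs of such neighbours, 12 higher and 13 lower, with 57 of its 552 genes. Of these runs 21 were pairs, 2 held 3 genes, 1 held 4 and 1 held 5. The run of 5, on chromosome 2, was made of abundant genes, with 1495 to 3218 CPM in mutant library 1 with GA3 and 2883 to 5471 CPM in mutant library 3. In M82 with GA3 they had 4951 to 9119 CPM in library 1 and 8036 to 12623 CPM in library 2. Their log2 fold changes with GA3 lay between -1.75 and -1.32, called by DESeq2 (adjusted p = 0.0022 to 0.0105) and not by edgeR (adjusted p = 0.148 to 0.195). Without GA3 they lay between -0.64 and -0.44, and none was called by edgeR. Of the GA3 libraries, all 5 were highest in M82 library 2, the library whose 100 most abundant genes took 50.3% of the counts, and its part in this result was not tested.

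The run of 4, on chromosome 9, was higher in the mutant with GA3, with log2 fold changes of 1.40 to 2.88. Of these 4, 1 was also called by edgeR, with 57.3 and 28.3 CPM in the mutant with GA3, against 5.03 and 6.67 CPM in M82 with GA3 (edgeR adjusted p = 0.0203). In all 4 genes mutant library 1 was above library 3. The higher run of 3, on chromosome 10, had log2 fold changes of 4.39 and 7.64 in 2 of its genes, with at most 0.632 CPM in M82 with GA3. In the remaining one M82 with GA3 had no count, and the mutant was at least 26.0-fold higher. All 3 genes were over 3-fold higher in mutant library 1 than in library 3, the middle one with 33.6 and 6.06 CPM. The lower run of 3, on chromosome 4, had at most 0.266 CPM in the mutant with GA3 and 0.491 to 2.87 CPM in M82 with GA3. Neighbouring genes can be near-identical copies that share reads, the counting options are not given in the sources used here, and this was not tested.

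**Figure D5:**
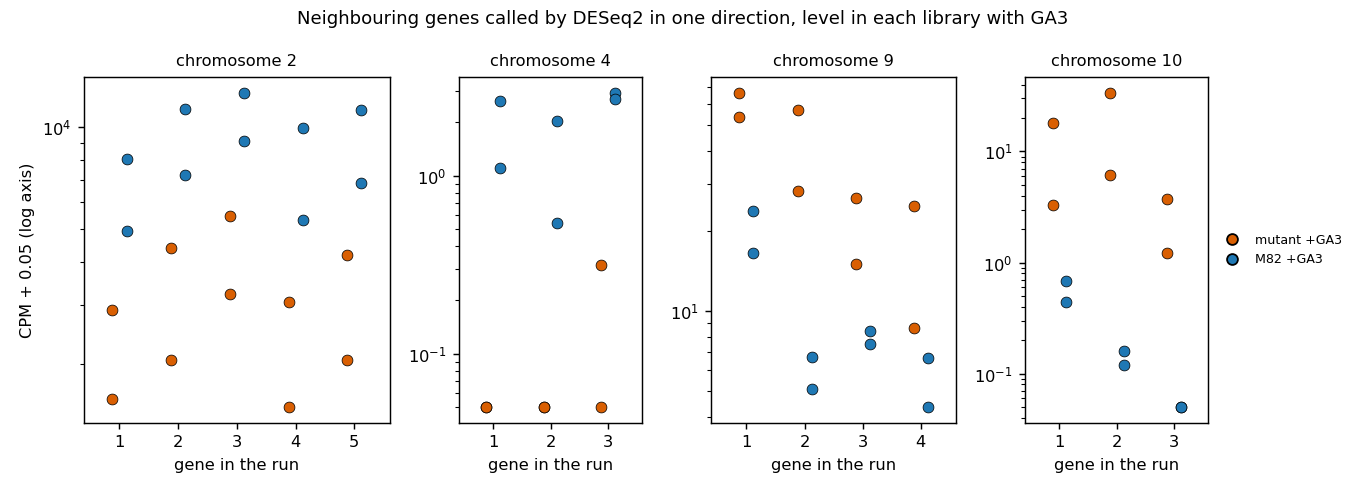
CPM + 0.05 (log axis) in each library with GA3 for the runs of 3 or more neighbouring genes that DESeq2 called in the same direction, in identifier order. Mutant points lie below M82 points in the runs of chromosomes 2 and 4 and above them in the runs of chromosomes 9 and 10.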

How the data were processed

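The table of the series, as deposited by the authors, holds raw read counts per gene for 34722 identifiers in 8 libraries. Per the submitters' processing notes, TopHat2 2.0.10, HTSeq 0.6.1p1 and DESeq2 1.6.3 were used. Build, annotation and counting options are not given in the sources used here. The table also holds 8 normalized columns, which are left out here, and 0 rows without an identifier. The library kit does not mark strand, so reads from overlapping antisense genes cannot be told apart by strand. Of the 4 GA3 columns, 3 match a sample title in genotype, treatment and number, and mutant column 3 shows its group alone.

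Genes passing edgeR's filterByExpr (minimum count 10) numbered 18340 and held 99.94% of counts. After TMM scaling, the robust quasi-likelihood test of edgeR 4.0.16 (R 4.3.3) was applied in a model of 4 groups with 4 residual degrees of freedom; SE is the log2 fold change over the square root of F. The alternative was DESeq2 1.42.0. Both were run on simulated counts, drawn as independent libraries with the spread that edgeR estimated here. That check required only the right sign of changes put in, and it does not show which list of calls is nearer the truth. Named genes were those called with the smallest edgeR p and at least 1 CPM in every library compared, 2 in each direction. The rule based on gene descriptions, and the lists built from them, could not be applied. The members and lists were chosen with earlier results of these data known. No group's libraries were copies of each other: a chi-square over genes, divided by its degrees of freedom, was 29.1 to 69.0.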

Additional observations from a re-analysis of the deposited data

Results flagged for a closer look

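Solyc03g119530.2 had opposite genotype differences in the 2 treatments. It had 5.78 and 6.75 CPM in the mutant with GA3, against 1.27 and 0.983 CPM in M82 with GA3, and 3.99 and 3.81 CPM in the mutant without GA3, against 4.77 and 5.57 CPM in M82 without GA3. The log2 fold change was 2.46 (edgeR adjusted p = 0.0302) with GA3 and -0.40 (edgeR adjusted p = 0.766) without, and their difference was 2.86 (SE 0.457, edgeR adjusted p = 0.546, DESeq2 adjusted p = 0.00565).

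Solyc07g062710.2 showed the reverse pattern, with 14.0 and 10.8 CPM in the mutant with GA3 against 20.9 and 20.0 CPM in M82 with GA3, and 13.8 and 11.7 CPM in the mutant without GA3 against 4.44 and 2.99 CPM in M82 without GA3. Its log2 fold change was -0.72 (edgeR adjusted p = 0.267) with GA3 and 1.77 (edgeR adjusted p = 0.0357) without, and the difference was -2.49 (SE 0.382, edgeR adjusted p = 0.546, DESeq2 adjusted p = 0.00193). Both genes had the smallest interaction p in their direction and were chosen after their values were seen.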

How the results depend on the processing

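The counts of calls moved with the processing. With GA3, the 65 calls became 552 with DESeq2, 438 without the filter, 37 with at least 5 CPM in 2 libraries, 172 in a fit of the 4 libraries compared, and 0 to 236 when single libraries were left out. Without GA3, the 72 calls became 412 with DESeq2, 338 without the filter and 1 to 172 without single libraries. The 24 shared calls became 166 with DESeq2, 136 without the filter and 0 to 39 without single libraries. The interaction gave 20 calls with DESeq2, 14 without the filter and 0 to 1 without single libraries, against 0. Where leaving one out gave a group a lone library, its spread was taken from the other groups. No named gene reversed in any of its 15 alternatives. Each was chosen in a comparison where its libraries did not overlap, so leaving out a library could not reverse it. With 2 libraries a group, an adjusted p near 0.05 is decided by single libraries. With number 1 set against the remaining number in every group as a replicate block, the fit gave 200 calls with GA3, 166 without GA3, 66 shared and 0 for the interaction. Column numbers 2 and 3 differ between the groups, so the numbers pair libraries only in part. The deviations of number 1 correlated with r = 0.21 between the GA3 groups (16182 genes). Between M82 with GA3 and M82 without it r was 0.544, and between the other groups it ran from -0.08 to 0.253. Being this uneven, the block is not taken as a pairing.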

Other observations

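In the whole deposited table, 7 genes had no count in any of the 4 M82 libraries and at least 5 counts in each of the 4 mutant libraries, and 0 genes showed the opposite pattern. Of the 7, 2 were among the 65 genes called with GA3.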
